A study of Mus musculus with 8 samples.

Results

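The genes studied here encode the enzymes that build cholesterol and fatty acids in the cell, together with the proteins that switch those enzymes on. Members were the rows of the deposited gene table whose symbol was on a list of 31 names, and all 31 were found among its 54532 rows. The list held 18 enzymes from acetyl-CoA to cholesterol (the sterol arm), 1 side-branch enzyme (Ggps1), 6 regulators and carriers, and 6 genes of fatty acid synthesis (the fatty acid arm). Of these, 30 passed a filter of a mean of 1 FPKM (fragments per kilobase of gene scaled to library size), as did 13716 genes in all. Fdps, which makes farnesyl diphosphate, stood at 0.171 to 0.245 FPKM (14 to 19 reads) and was not tested. Its neighbours in the pathway, Idi1 and Fdft1, had mean levels of 6.21 and 28.8 FPKM. Whether reads of Fdps were lost in the counting was not tested. RNA came from the substantia nigra, the midbrain region whose dopamine neurons are lost in Parkinson's disease, of male C57BL/6 mice. There were 4 groups of 2 libraries. The control group is called WT in the sample titles. The α-Syn group received AAV-α-synuclein, an adeno-associated virus that carries the gene of the protein found in Lewy bodies. The AKG group received α-ketoglutarate, an intermediate of the citric acid cycle that the series title describes as dietary, and the combined group received both. Age, dose, duration, the promoter of the vector and any empty vector in the control and AKG groups are unstated in the labels. Nor is it stated that the 2 libraries of a group are from separate animals, so p-values measure the spread between these samples, which may be technical.

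Cholesterol is made from acetyl-CoA through mevalonate, isoprenoid diphosphates, squalene and lanosterol. Fatty acids are made from the same acetyl-CoA by carboxylation, chain building, elongation and desaturation. The SREBP transcription factors, encoded by Srebf1 and Srebf2, are held in the endoplasmic reticulum with SCAP by the INSIG proteins while sterol is plentiful. When sterol runs low, SCAP carries them to the Golgi, where they are cut and released to the nucleus. SREBP-2 acts mainly on sterol genes and SREBP-1c mainly on fatty acid genes. Brain cholesterol is made locally, since lipoproteins of the blood hardly enter, and myelinating oligodendrocytes and astrocytes are main producers.

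Promoters are shown for Msmo1 and Nsdhl of the sterol arm and Fasn of the fatty acid arm, members on which the results below turn. Hmgcs1 is added because it alone held the SREBP element searched for. Each sequence runs 5′ to 3′ from 250 bases before to 50 bases after the annotated gene start (RefSeq, GRCm38.p6). Capitals mark the SREBP element TCACNCCAC and NF-Y boxes (CCAAT, or ATTGG on the other strand).
Hmgcs1, chr13:119690101-119690400, plus strand: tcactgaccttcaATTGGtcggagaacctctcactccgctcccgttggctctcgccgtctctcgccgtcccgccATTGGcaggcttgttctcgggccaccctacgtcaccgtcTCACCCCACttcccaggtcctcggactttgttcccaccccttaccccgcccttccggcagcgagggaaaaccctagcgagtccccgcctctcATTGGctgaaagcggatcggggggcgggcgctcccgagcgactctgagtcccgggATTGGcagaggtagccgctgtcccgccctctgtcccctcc
Msmo1, chr8:64733529-64733828, minus strand: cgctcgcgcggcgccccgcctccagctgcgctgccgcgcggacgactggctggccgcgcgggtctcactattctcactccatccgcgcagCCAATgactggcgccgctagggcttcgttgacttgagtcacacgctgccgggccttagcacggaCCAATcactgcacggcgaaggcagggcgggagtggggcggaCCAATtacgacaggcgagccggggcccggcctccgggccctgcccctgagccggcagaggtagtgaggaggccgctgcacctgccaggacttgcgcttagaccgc
Nsdhl, chrX:72918271-72918570, plus strand: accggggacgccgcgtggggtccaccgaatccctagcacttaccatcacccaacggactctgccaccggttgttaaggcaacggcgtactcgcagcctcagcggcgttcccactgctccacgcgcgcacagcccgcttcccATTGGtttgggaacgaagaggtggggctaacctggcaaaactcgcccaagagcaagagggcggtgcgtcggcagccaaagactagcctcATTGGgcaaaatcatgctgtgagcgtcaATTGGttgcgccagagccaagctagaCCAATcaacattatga
Fasn, chr11:120824498-120824797, minus strand: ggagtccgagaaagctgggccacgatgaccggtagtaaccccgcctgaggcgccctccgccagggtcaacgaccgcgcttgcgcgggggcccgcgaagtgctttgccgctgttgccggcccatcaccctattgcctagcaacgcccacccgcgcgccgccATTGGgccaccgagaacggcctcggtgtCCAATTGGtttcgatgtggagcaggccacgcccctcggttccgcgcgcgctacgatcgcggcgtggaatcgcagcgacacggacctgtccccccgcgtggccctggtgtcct
In Hmgcs1 the element begins 137 bases before the gene start. RefSeq entries matched 25 of the 31 members (all but Fdps, Fdft1, Sqle, Scd1, Scd2 and Stard4), with 33 promoters. On either strand, TCACNCCAC was in 1 of these 33 (3.03%) and in 1.24% of all 32851 promoters of the same length. The E-box form TCACNTGA was in 1 (Insig2), against 4.18% of all. NF-Y boxes were in 22 of 33 (66.7%), against 37.4% of all, and the Sp1 box GGGCGG was in 24 of 33 (72.7%), against 35.7%. No NF-Y box overlapped an Sp1 box in a member's promoter, and neither SREBP motif overlapped another motif. In Fasn, 2 NF-Y boxes on opposite strands overlap in CCAATTGG. These are matches of letters in a short window and carry no measurement of binding.

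The libraries held 16544190.0 to 19125423 reads assigned to genes. Control library 1 stood apart: its mean Spearman correlation with the other 7 libraries over tested genes was 0.926, against 0.971 to 0.975 for the rest. Levels also followed gene length differently by library. The Spearman correlation between gene length and the deviation of a gene from its mean was −0.52 and −0.28 in the control libraries and between −0.17 and 0.47 in the other 6. The sum of 7 choroid plexus markers ran from 54.0 FPKM (α-Syn 1) to 8945 (control 1), and that of 5 red cell genes from 14.6 (control 1) to 444 (control 2). The 8 dopamine neuron markers summed to 143 and 139 FPKM in the control libraries and to 55.2 to 80.7 in the other 6. Since all treated groups were lower, a difference in dissection and one that came with treatment cannot be told apart here. In RNA from whole tissue, fewer cells of a type and less RNA per cell cannot be told apart.

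Levels differed widely among the members but little among the libraries. The highest by far was Scd2, the main stearoyl-CoA desaturase of the brain, at 365.7 to 540.6 FPKM, and its relative Scd1 followed at 64.8 to 90.0 FPKM. ATP citrate lyase (Acly), which frees acetyl-CoA in the cytosol, stood at 49.9 to 55.4 FPKM and was the steadiest member, with a coefficient of variation over the 8 libraries of 4.0%. The lowest tested members were Lss, which closes squalene oxide into lanosterol, at 2.40 to 3.28 FPKM and Tm7sf2, a sterol reductase, at 2.76 to 4.29. The median coefficient of variation was 11.2% over the 30 tested members and 14.0% over all tested genes. It was 10.3% in the sterol arm and 14.2% in the fatty acid arm, where fatty acid synthase (Fasn, 23.9%), acetyl-CoA carboxylase (Acaca, 18.6%) and the elongase Elovl6 (17.3%) varied most.

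In the first steps of the sterol arm, Hmgcs1, which condenses acetyl-CoA units into HMG-CoA, stood at 35.8 and 45.9 FPKM in the control libraries, 44.8 and 44.2 in the α-Syn group, 40.8 and 43.5 in the AKG group and 42.4 and 36.2 in the combined group. Its lowest values were control 1 and combined 2. Both combined libraries lay below both α-Syn libraries, and the values of all 3 treated groups lay between those of the controls. The thiolase Acat2 was at 23.0 and 22.5 FPKM in controls, 19.33 and 19.26 in the α-Syn group, 19.1 and 20.4 in the AKG group and 18.5 and 17.3 in the combined group, all below both controls. Mevalonate kinase (Mvk) was likewise highest in the controls, at 14.4 and 12.9 FPKM, against 11.8 and 10.1, 11.02 and 12.1, and 10.3 and 11.3 in the same group order. Mevalonate diphosphate decarboxylase (Mvd) was at 14.0 and 15.4 FPKM in controls, 12.8 and 11.98 in the α-Syn group, 11.8 and 11.3 in the AKG group and 10.2 and 12.4 in the combined group. Phosphomevalonate kinase (Pmvk) ranged from 24.3 to 34.0 FPKM. The isomerase Idi1, which balances the isoprenoid building blocks, was at 5.97 and 7.39, 6.00 and 6.25, 6.67 and 6.42, and 5.68 and 5.31 FPKM in the same group order, so that the combined libraries were the lowest of the 8.

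Squalene synthase (Fdft1, ENSMUSG00000021273, GRCm38 chr14:63145150-63179578, minus strand) makes the first intermediate committed to sterols. It stood at 30.9 and 33.8 FPKM in controls, 29.9 and 29.8 in the α-Syn group, 26.1 and 27.7 in the AKG group and 26.0 and 26.6 in the combined group. The 4 libraries with AKG were all below the 4 without. Squalene epoxidase (Sqle) was at 15.4 and 17.0, 15.0 and 15.7, 15.8 and 15.8, and 14.2 and 12.9 FPKM, lowest in the combined group. Cyp51, which removes a methyl group from lanosterol, was at 18.1 and 23.7 FPKM in controls, 18.8 and 19.4 in the α-Syn group, 19.6 and 18.97 in the AKG group and 18.6 and 18.7 in the combined group. Lss was at 2.40 and 2.75, 2.67 and 3.28, 2.77 and 2.72, and 3.21 and 2.49 FPKM, with all groups overlapping. Tm7sf2 was at 3.88 and 3.82, 3.73 and 3.88, 3.81 and 4.29, and 2.76 and 3.82 FPKM, with combined 1 the lowest library.

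Msmo1, Nsdhl and Hsd17b7 act in turn to strip further methyl groups from the sterol ring. Methylsterol monooxygenase (Msmo1, ENSMUSG00000031604, chr8:64718139-64733792, minus strand) was at 17.4 and 18.8 FPKM in controls, 16.6 and 17.3 in the α-Syn group, 14.3 and 15.6 in the AKG group and 14.8 and 12.7 in the combined group. The dehydrogenase Nsdhl (ENSMUSG00000031349, chrX:72918557-72958514, plus strand) was at 10.3 and 10.6, 10.0441 and 9.19, 7.99 and 8.50, and 8.84 and 8.53 FPKM. For both genes every library with AKG lay below every library without it. The reductase Hsd17b7 did not share this order, at 3.05 FPKM in control 1 and 4.17 to 5.02 in the other 7 libraries. Of the later enzymes, Dhcr7, which makes cholesterol in the last step of its branch, was at 4.46 and 7.38, 6.70 and 5.96, 6.34 and 6.21, and 5.92 and 5.28 FPKM, and both control libraries bound the range. The isomerase Ebp ranged from 7.37 to 11.3 FPKM and the desaturase Sc5d from 13.8 to 16.6. Ggps1, which leads isoprenoids toward protein prenylation instead, ranged from 11.1 FPKM (control 1) to 14.3 (combined 1).

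**Figure D1:**
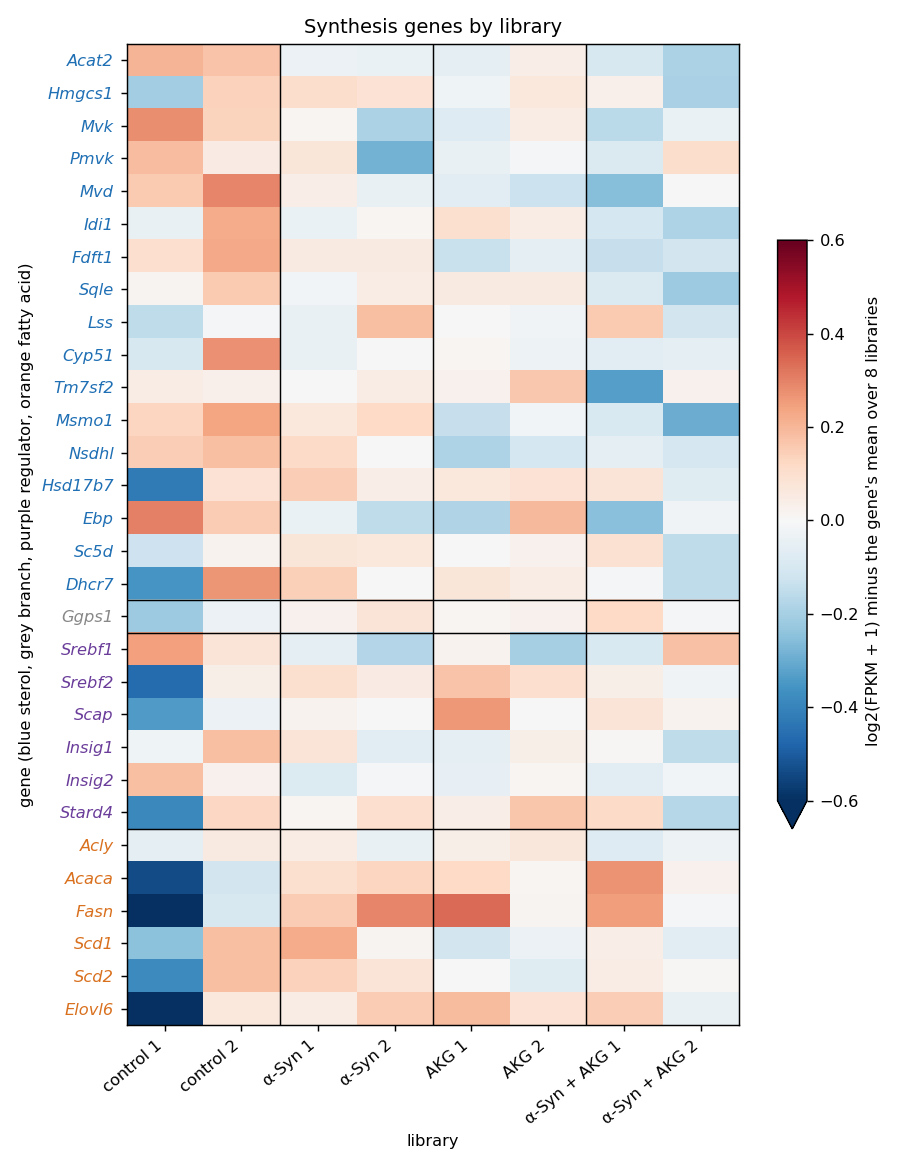
Deviation of each of the 30 tested genes (rows) in each of the 8 libraries (columns) from its own mean on the log2(FPKM + 1) scale, red higher and blue lower; the colour scale ends at ±0.6. Control 1 was the lowest library for 5 of 6 fatty acid genes, and control 2 was the highest for 9 of 17 sterol enzymes.

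Among the regulators, Srebf2 stood at 25.011 and 35.7 FPKM in controls, 37.3 and 36.1 in the α-Syn group, 39.4 and 37.4 in the AKG group and 35.7 and 34.4 in the combined group. Srebf1 went the other way, at 31.6 and 28.0, 25.4 and 23.3, 26.9 and 22.9, and 24.8 and 30.0 FPKM. Control 1 was thus the lowest library for Srebf2 and the highest for Srebf1. Insig1 was at 33.9 and 39.3, 36.5 and 32.8, 33.1 and 35.4, and 34.7 and 31.0 FPKM, and Insig2 at 20.6 and 18.3, 17.0 and 17.9, 17.4 and 18.2, and 17.1 and 17.8 FPKM. Both Insig2 controls were above all other libraries. Scap ranged from 8.18 FPKM (control 1) to 12.9 (AKG 1). Stard4, a sterol carrier of the cytosol, was at 5.28 and 7.97, 7.29 and 7.81, 7.44 and 8.24, and 7.91 and 6.31 FPKM.

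In the fatty acid arm, Fasn (ENSMUSG00000025153, chr11:120805846-120824547, minus strand) builds palmitate and had the widest range of the 30 genes, 2.54-fold. It was at 14.3 and 26.5 FPKM in controls, 31.8 and 35.0 in the α-Syn group, 36.2 and 28.8 in the AKG group and 34.0 and 28.3 in the combined group. Acaca, which makes malonyl-CoA, was at 2.66 and 3.91, 4.67 and 4.81, 4.76 and 4.35, and 5.40 and 4.40 FPKM, both controls again lowest. Elovl6, which lengthens palmitate, was at 6.10 and 10.6, 10.4 and 11.3, 11.6 and 10.8, and 11.3 and 9.74 FPKM, and here control 2 lay among the treated libraries. Scd1 was at 64.8 and 87.4, 90.0 and 78.0, 71.4 and 75.3, and 79.2 and 73.7 FPKM. Scd2 was at 365.7 and 540.6, 525.6 and 503.1, 478.1 and 454.1, and 491.4 and 479.8 FPKM, with control libraries at both ends. Acly was at 50.8 and 54.8, 54.4 and 51.2, 54.2 and 55.4, and 49.9 and 51.7 FPKM. Over the 6 genes, the control libraries differed by a median of 0.49 on the log2(FPKM + 1) scale. The same median was 0.096 between the α-Syn, 0.088 between the AKG and 0.15 between the combined libraries, and over all tested genes it was 0.25 between the controls.

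The question of what the vector did was addressed by the α-Syn group against control. Most sterol enzymes were lower and most fatty acid genes higher, but no member passed the test. The median log2 difference was −0.10 over the sterol arm (5 higher, 12 lower) and 0.30 over the fatty acid arm (5 higher, 1 lower), beside −0.0087 over all tested genes. With limma on log2(FPKM + 1), 0 of 30 members had an adjusted p under 0.05, beside 0.0% of all tested genes, and voom on the recovered reads called 0 as well. At an unadjusted p under 0.05, 2 members were higher and 1 lower, beside 9.27% and 7.54% of all genes. The leading ones were Acaca (log2 difference 0.44 ± 0.16 SE), Mvk (−0.29 ± 0.12) and Fasn (0.74 ± 0.27), each with limma's adjusted p of 0.294. Both α-Syn libraries lay above both controls for 6 members and below for 9, beside 26.3% and 27.6% of all genes, so these shares were close to the background.

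These values rest on the control libraries. Without control 1 the fatty acid median was −0.0087 (3 higher, 3 lower) and the sterol median −0.16 (3 higher, 14 lower). Without control 2, with control 1 as the lone control, the medians were 0.57 and −0.023. In that fit limma called 7 members, all higher (Hsd17b7, Dhcr7, Srebf2, Acaca, Fasn, Scd2 and Elovl6), but also 14.6% of all tested genes as higher. The Fasn difference was 0.32 without control 1 and 1.17 without control 2, that of Acaca 0.22 and 0.65, and that of Elovl6, 0.39 ± 0.22 with both controls, 0.037 and 0.74. For Srebf2, at 0.29 ± 0.16 (limma, adjusted p = 0.352), it was 0.039 and 0.54.

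The difference also followed gene length. Across the 30 members the Spearman correlation between length and the α-Syn difference was 0.75, a description over genes that share the same 4 libraries. After a smooth length trend was removed from each library it was 0.25. The sterol genes had a median length of 4415 bases (1713 to 10787) and the fatty acid genes of 5942 (4836 to 17074), beside 4070.5 over all tested genes. With the trend removed, the fatty acid median was 0.12, Fasn stood at 0.46, Acaca at 0.035 and Mvk at −0.15. Srebf1, at −0.28 ± 0.14 before (limma, adjusted p = 0.319), stood at −0.37. The part of length in the members' differences was not tested further.

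**Figure D2:**
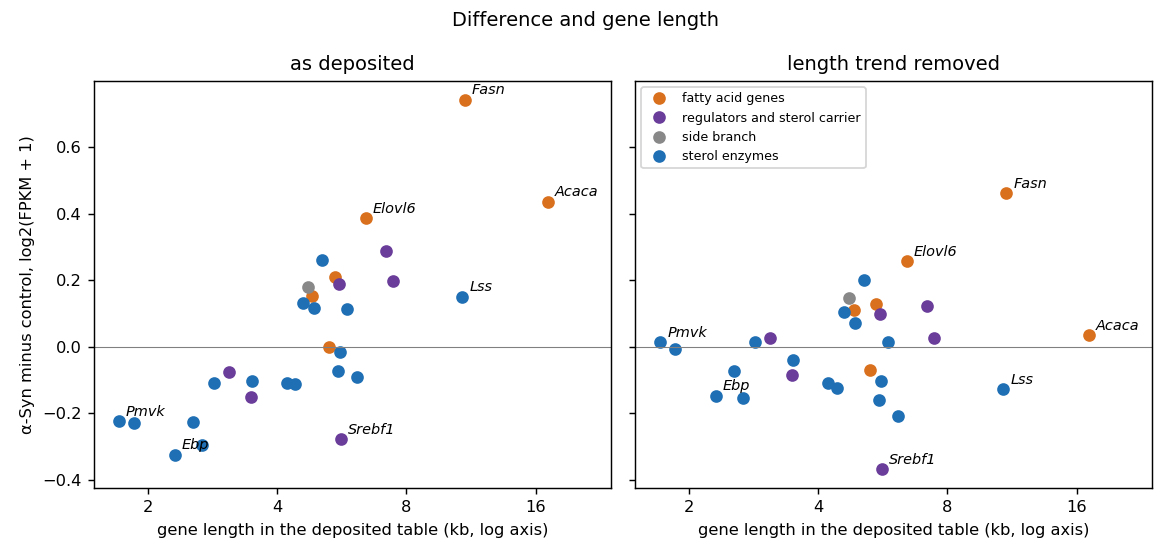
Log2 difference of the α-Syn group from control (vertical) against gene length in the deposited table (horizontal, log axis) for the 30 tested genes, before (left) and after (right) a length trend was removed from each library. The Spearman correlation was 0.75 on the left and 0.25 on the right, and Fasn was the highest point in both.

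For AKG against control the same control libraries serve again, so this comparison and the last are not independent. The medians were −0.10 in the sterol arm (6 higher, 11 lower), 0.23 in the fatty acid arm (5 higher, 1 lower) and −0.0098 over all tested genes. Limma called 0 of 30 members, beside 0.00729% of tested genes (1 gene), and voom called 0 members. At an unadjusted p under 0.05, 2 were higher and 3 lower, beside 10.5% and 7.19% of all genes. The 3 members with the smallest p were all sterol enzymes: Nsdhl at −0.31 ± 0.096 (limma, adjusted p = 0.269), Mvd at −0.32 ± 0.12 and Fdft1 at −0.26 ± 0.098 (adjusted p = 0.270 each). Fasn stood at 0.70 ± 0.27 (limma, adjusted p = 0.272), Acaca at 0.39 ± 0.16, Elovl6 at 0.43 ± 0.22, Srebf2 at 0.35 ± 0.16 and Srebf1 at −0.25 ± 0.14. The AKG libraries lay above both controls for 6 members and below for 9, beside 26.0% and 26.4% of all genes.

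Leaving out control 1 moved both medians down. The fatty acid median then was 0.038 (3 higher, 3 lower), while the sterol median was −0.15 with 16 of 17 genes lower. Without control 2 they were 0.47 and 0.035, and limma called 6 members, all higher (Hsd17b7, Srebf2, Scap, Acaca, Fasn and Elovl6), beside 15.2% of all genes called higher. The Fasn difference was 0.27 without control 1 and 1.12 without control 2, and that of Elovl6 was 0.077 and 0.78. For Srebf2 it was 0.10 and 0.60, and for Acaca 0.18 and 0.60. With the length trend removed the fatty acid median was −0.013, Fasn stood at 0.42, Mvd at −0.12 and Acaca at −0.0057.

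What AKG did on top of the vector was addressed by the combined against the α-Syn group, which involves no control library. Of the 17 tested sterol enzymes 16 were lower in the combined group, all but Pmvk, with a median log2 difference of −0.12, while 47.7% of all tested genes were lower, with a median of 0.0060. The fatty acid median was −0.068 (1 higher, 5 lower). Limma called 0 of 30 members, beside 0.0% of all genes, and voom called 0. At an unadjusted p under 0.05, 1 member was lower (Msmo1) and 0 higher, beside 0.459% of all genes lower and 0.897% higher. The smallest p values were those of Msmo1 (−0.29 ± 0.11), Fdft1 (−0.18 ± 0.098) and Sqle (−0.17 ± 0.10), each with limma's adjusted p of 1.0. Both combined libraries were below both α-Syn libraries for 11 members, beside 11.4% of all genes, and above for 0, beside 12.9%. The 11 were Acat2, Hmgcs1, Idi1, Fdft1, Sqle, Cyp51, Msmo1, Nsdhl, Dhcr7, Srebf2 and Scd2.

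The direction of the sterol median in this comparison was the same without either combined library: −0.16 without library 1 (12 of 17 lower) and −0.082 without library 2 (14 of 17 lower). It was −0.15 with the length trend removed, again with 16 of 17 lower. The differences of single genes depended more on 1 library. That of Msmo1 was −0.39 without combined 1 and −0.18 without combined 2, and that of Sqle −0.23 and −0.10.

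Against the AKG group, the combined group had a median of −0.086 in the sterol arm (3 higher, 14 lower) and of −5.8e-05 in the fatty acid arm (3 higher, 3 lower), beside −0.0011 over all genes. This comparison shares the combined libraries with the previous one. Limma called 0 of 30 members, beside 0.0% of all genes, voom called 0, and 0 had an unadjusted p under 0.05, beside 0.714% of genes higher and 0.423% lower. Sqle (−0.21 ± 0.10), Idi1 (−0.22 ± 0.12) and Tm7sf2 (−0.24 ± 0.14) had the smallest p. Both combined libraries were below both AKG libraries for 7 members (Acat2, Idi1, Sqle, Cyp51, Dhcr7, Srebf2 and Acly), beside 11.8% of all genes, and above for Nsdhl and Scd2, beside 11.3%. Acat2, Idi1, Sqle, Cyp51, Dhcr7 and Srebf2 were therefore lower in both combined libraries than in any library given only the vector or only AKG. The share of all tested genes that met both conditions was not counted, so this list has no background. For Cyp51, Dhcr7 and Srebf2, control 1 lay below both combined libraries. The Tm7sf2 value was −0.066 without combined 1 and −0.42 without combined 2, and those of Sqle were −0.27 and −0.14.

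Whether AKG acted differently with the vector was addressed by the interaction. Its median was −0.027 in the sterol arm (8 positive, 9 negative), −0.25 in the fatty acid arm (6 of 6 negative) and 0.0087 over all genes. Limma called 0 of 30 members, beside 0.0% of all genes, voom called 0, and 0 had an unadjusted p under 0.05, beside 3.62% of genes positive and 3.66% negative. Fasn (−0.80 ± 0.38) and Srebf1 (0.41 ± 0.20) had limma's adjusted p of 0.537, and Srebf2 (−0.42 ± 0.23) of 0.540. The fatty acid median was −0.088 without control 1, −0.50 without control 2 and −0.055 with the length trend removed. Without control 2 limma called Srebf2, Fasn and Elovl6, all negative, beside 6.77% of all genes called negative.

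The 4 libraries with AKG were also compared with the 4 without, an average chosen after the values were seen. Of the sterol enzymes 15 of 17 were lower, with a median of −0.076, while 49.0% of all genes were lower, with a median of 0.0041. The fatty acid median was 0.095 (3 higher, 3 lower). Limma called 0 of 30 members, beside 0.0% of all genes, and voom called 0. An unadjusted p under 0.05 was reached by 4 members, all lower sterol enzymes, beside 2.73% of all genes lower and 3.86% higher. Fdft1, Msmo1 and Nsdhl were the members whose 4 AKG libraries all lay below the 4 others, beside 1.9% of all genes, and 0 members lay above, beside 1.66%. Their mean levels were 31.1 against 26.6 FPKM for Fdft1 (−14.5% with AKG), 17.5 against 14.3 for Msmo1 (−18.1%) and 10.0299 against 8.46 for Nsdhl (−15.6%). For each of these genes both α-Syn libraries, which had no AKG, also lay below both controls, as did 27.6% of all genes.

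The differences for these genes were −0.22 ± 0.069 for Fdft1, −0.27 ± 0.080 for Msmo1 and −0.22 ± 0.068 for Nsdhl, each with limma's adjusted p of 0.677 and unadjusted p of 0.0163, 0.0112 and 0.0146. The same members were apart under quantile normalization, median-of-ratios scaling and removal of the length trend, where 2.35%, 1.95% and 2.53% of all genes were apart in that direction. Leaving out 1 library at a time gave −0.25 to −0.19 for Fdft1, −0.33 to −0.22 for Msmo1 and −0.25 to −0.19 for Nsdhl. Since the libraries of these genes lay apart, leaving out 1 could not change the sign, so the ranges show size only. The unadjusted p-values come from the same values that singled these genes out and add no separate support. Without control 1 the sterol arm had 16 of 17 lower and a median of −0.14, and without control 2 it had 11 of 17 lower and a median of −0.063. Without control 2 limma called 2 members, Fasn and Elovl6, both higher, beside 6.82% of all genes.

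**Figure D3:**
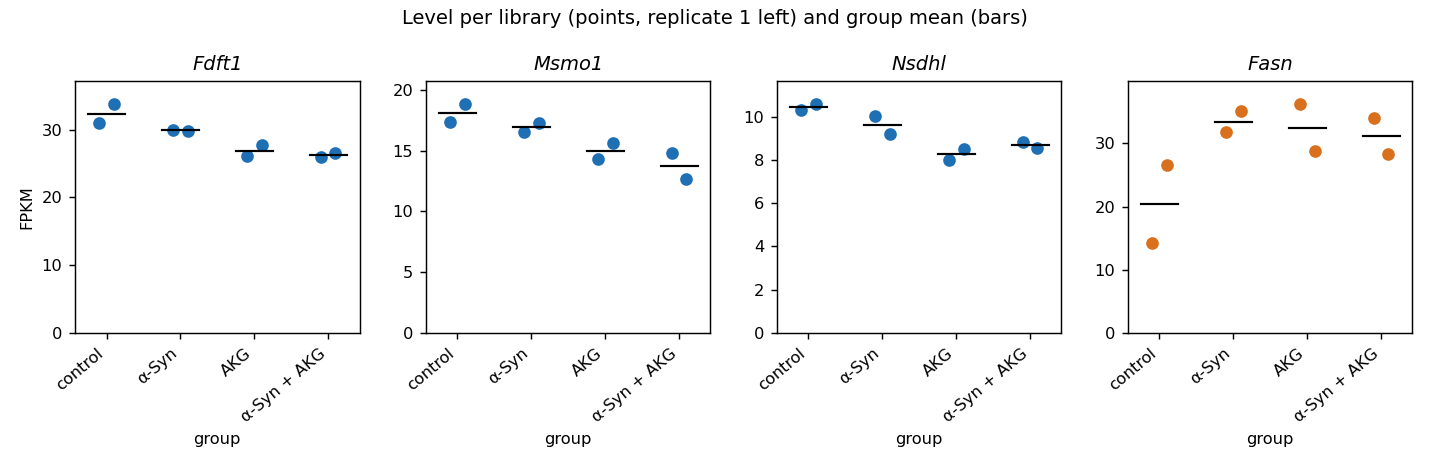
Level in FPKM (vertical, from 0) of Fdft1, Msmo1, Nsdhl and Fasn in each library (points) and the mean of each group (bars). For Fdft1, Msmo1 and Nsdhl all 4 AKG libraries lay below the 4 others, and for Fasn both controls, at 14.3 and 26.5 FPKM, were the lowest points.

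The matching average of the 4 vector libraries against the 4 without, also chosen after the values were seen, gave a median of −0.095 in the sterol arm (4 higher, 13 lower), 0.14 in the fatty acid arm (5 higher, 1 lower) and −0.0010 over all genes. No member had its 4 vector libraries all on 1 side, beside 0.838% of genes higher and 1.06% lower. Limma called 0 of 30 members, beside 0.0% of genes, voom called 0, and 1 member had an unadjusted p under 0.05, beside 2.11% of genes higher and 1.86% lower. That member was Acat2 at −0.18 ± 0.067, followed by Acaca at 0.26 ± 0.11 and Mvk at −0.19 ± 0.084 (limma, adjusted p = 0.724 each). Without control 1 the fatty acid median was −0.0037 and 16 of 17 sterol enzymes were lower, and Acaca stood at 0.15. Without control 2 limma called Fasn, higher, beside 3.5% of all genes.

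Library by library, control 1 had the widest gap between the arms. The median deviation of the fatty acid genes from their own means was −0.46 in control 1 and between −0.019 and 0.12 in the other 7. That of the sterol genes was 0.045 in control 1, highest in control 2, at 0.16, and lowest in the combined libraries, at −0.088 and −0.11. Control 1 was the lowest library for 14 of 30 members (46.7%), beside 36.3% of all genes. Control 2 was the highest for 11 (36.7%), beside 10.2% of all genes, and the lowest for 0. With the length trend removed, the fatty acid genes stood at −0.22 in control 1, and the sterol genes at 0.13 in control 2 and −0.059 and −0.13 in the combined libraries.

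**Figure D4:**
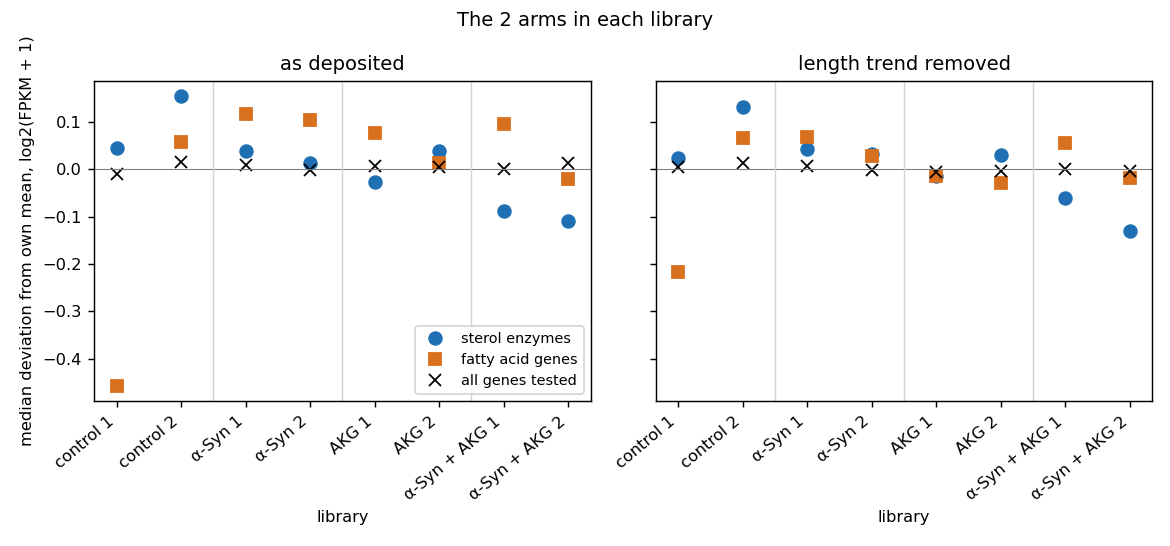
Median deviation of the 17 tested sterol enzymes (circles), the 6 fatty acid genes (squares) and all tested genes (crosses) from their own means, log2(FPKM + 1), in each library, as deposited (left) and with the length trend removed (right). The fatty acid median of control 1, at −0.46 on the left and −0.22 on the right, was the lowest point of both panels.

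The combined libraries were compared with each other, 1 library against 1 with no test. Library 1 was higher than library 2 for 10 of 17 sterol enzymes (median difference 0.082) and 5 of 6 fatty acid genes (0.15), while 48.6% of all tested genes were higher (median −0.0086). The differences ran from 0.29 for Stard4, 0.27 for Lss and 0.26 for Fasn down to −0.26 for Mvd, −0.27 for Srebf1 and −0.36 for Tm7sf2. None of the 30 members differed by 1.5-fold in either direction, beside 1.47% of all genes higher and 3.19% lower in library 1. The median absolute difference over the sterol arm was 0.15 between the combined libraries, close to the 0.14 between the controls and above the 0.060 between the α-Syn and 0.063 between the AKG libraries. Over all tested genes it was larger in every pair, at 0.17, 0.25, 0.11 and 0.12 in the same order. With the length trend removed the sterol median was 0.11 and the fatty acid median 0.064.

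Sums of cell type markers also differed between the combined libraries for some cell types, but hardly for astrocytes. The sum of 12 markers of myelinating oligodendrocytes was 1091 FPKM in combined 1 and 1572 in combined 2, the highest of all 8 libraries, with a range of 1027 to 1420 in controls, 1033 to 1224 in the α-Syn group and 1037 to 1229 in the AKG group. The 6 precursor markers summed to 161 and 232 FPKM, the 8 astrocyte markers to 780 and 788, the 6 neuron markers to 977 and 1068 and the choroid plexus markers to 62.3 and 4952. Microglia markers summed to 87.9 and 110 FPKM, the red cell genes to 208 and 375 and endothelium markers to 109 and 133. None of these markers was at 0 in all libraries. Combined 1, with less oligodendrocyte marker RNA, was the higher of the 2 for 10 of 17 sterol enzymes and 5 of 6 fatty acid genes. The share over all tested genes was 48.6%. Of the controls, control 2 had the larger oligodendrocyte sum, 1420 against 1027 FPKM. Control 1 was the higher of the 2 for 5 of 17 sterol enzymes and 0 of 6 fatty acid genes, beside 6157 of all 13716 tested genes. The choroid plexus sum was larger in control 1, at 8945 against 452 FPKM, and in combined 2. Precursor, neuron, microglia, red cell and endothelium sums were larger in control 2 and in combined 2. The part of cell makeup in these values was not tested.

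**Figure D5:**
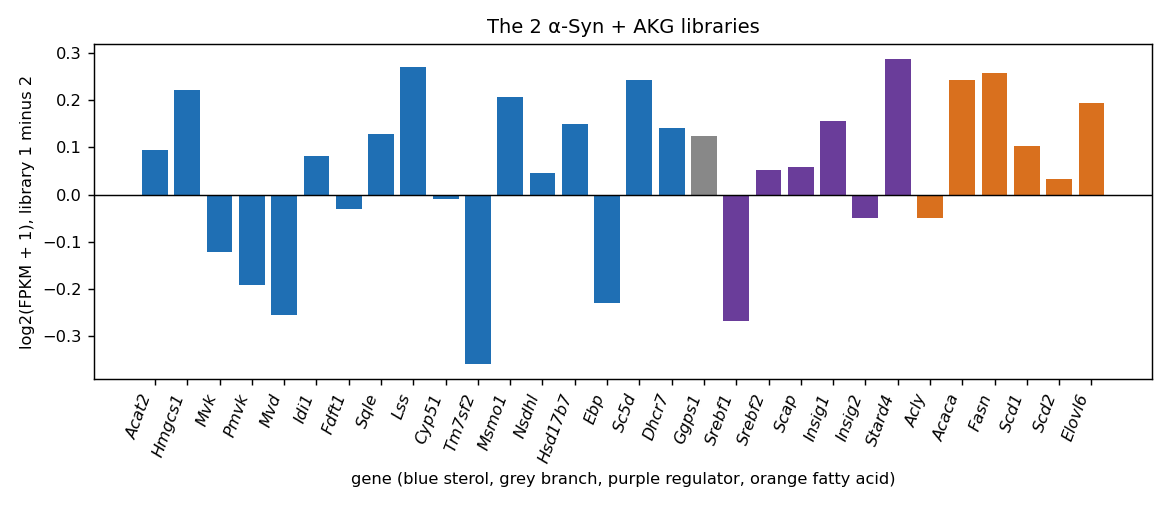
Log2 difference between the combined libraries, library 1 minus library 2 (bars, vertical), for each of the 30 tested genes in pathway order (horizontal). Bars run from −0.36 (Tm7sf2) to 0.29 (Stard4), and 5 of 6 fatty acid genes were higher in library 1.

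Around the synthesis genes, 30 further genes of lipid handling were looked at, all of them tested. In the fit of all libraries limma called 0 of them in any comparison. At an unadjusted p under 0.05, 3 of the supply genes were lower in each group against control, and of the export genes 2 were higher and 1 lower in each. The shares of all tested genes were 9.27% higher and 7.54% lower for α-Syn, and 10.5% and 7.19% for AKG. The 13 genes of acetyl-CoA and NADPH supply and fatty acid elongation had medians of −0.17 (2 higher, 11 lower) in the α-Syn and −0.20 (2 higher, 11 lower) in the AKG group against the shared controls. With the length trend removed they were −0.13 and −0.16, and without control 1 they were −0.17 and −0.16. Among them the mitochondrial citrate carrier Slc25a1 was at 39.5 and 34.1 FPKM in controls and 26.1 to 29.8 in the other 6 libraries, with an α-Syn difference of −0.38 ± 0.12. Mid1ip1, a partner of acetyl-CoA carboxylase, was at 76.2 and 76.0 FPKM in controls and 51.9 to 69.2 elsewhere, with an α-Syn difference of −0.42 ± 0.13 (limma, adjusted p = 0.294 each). With the length trend removed these differences were −0.19 for Slc25a1 and −0.23 for Mid1ip1. That of Slc25a1 was −0.28 without control 1 and −0.48 without control 2. The 6 genes of SREBP processing had medians of 0.058 and 0.0055, which turned to −0.056 and −0.098 with the length trend removed. The 11 genes of sterol export, storage and turnover had medians of 0.12 and 0.15 (7 higher, 4 lower each). These turned to −0.034 (4 higher, 7 lower) and −0.062 (5 higher, 6 lower) with the length trend removed, and to −0.028 and −0.0025 without control 1.

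In the average over AKG, 2 of the 11 export and turnover genes lay above in all 4 libraries, beside 1.66% of all tested genes, and 0 lay below, beside 1.9%. Abca1, the pump that loads cholesterol onto lipoproteins, was at 3.51 and 3.91 FPKM in controls, 4.71 and 4.48 in the α-Syn group, 4.87 and 4.82 in the AKG group and 5.22 and 4.99 in the combined group (0.22 ± 0.070, and 0.097 with the length trend removed). Cyp46a1, the neuronal enzyme that hydroxylates cholesterol for removal from the brain, was at 19.4 and 35.5, 43.7 and 38.7, 48.9 and 44.7, and 44.6 and 44.6 FPKM (0.46 ± 0.18, with 0.48 after the length trend was removed). Its difference was 0.25 without control 1 and 0.67 without control 2. With all libraries limma's adjusted p was 0.677 for Abca1 and for Cyp46a1. For both genes the α-Syn libraries, which had no AKG, also lay above both controls, as did 26.3% of all genes. The median of the export list in this average was 0.13 (7 of 11 higher), but 0.00017 with the length trend removed and 0.031 without control 1. In the same average 12 of 13 supply and elongation genes were lower, with a median of −0.089. With the length trend removed 12 of 13 were lower (−0.074), and without control 1 it was 10 of 13 (−0.071). Of these genes Hacd3 lay below in all 4 AKG libraries.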

How the data were processed

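The 8 libraries are RNA-seq of substantia nigra. Total RNA from a column kit entered SMARTer mRNA-seq preparation, per the labels' protocols. Builds GRCm38 and mm10 are named in the submitters' processing notes; for the aligner, counter and strandedness these sources give nothing. FPKM values and gene lengths are as the authors deposited them, in 1 table, per the file headers. Times length, the values were whole multiples of 1 step (100% within 0.01 read), so reads could be recovered; the effective library size was 0.984 to 1.05 times their sum.

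Values were taken as log2(FPKM + 1), so differences of low genes are understated. Genes averaging 1 FPKM or more entered limma 3.58.1 (R 4.3.3): group means, trended eBayes over all libraries (4 residual degrees of freedom, prior 2.98), two-sided, Benjamini-Hochberg over 13716 genes, threshold 0.05. Of 7 comparisons 5 were planned, and the 2 averages were added after values were seen. Lists are described by medians and counts, without a test. The length trend was a spline with 5 degrees of freedom fitted in each library. Alternatives were other filters, a pseudocount of 0.1, other scalings, a replicate block, library weights, eBayes without a trend, the compared groups alone and leaving out each library; voom on the recovered reads was chosen after seeing the data.

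Members, lists and tests were chosen with earlier results of these data known. By rule, 19 members are given library by library, and so are the 3 of smallest p in each comparison, which adds Acat2, Mvk, Mvd, Tm7sf2 and Nsdhl; Abca1, Cyp46a1, Slc25a1, Mid1ip1 and the other log2 differences were chosen after their values were seen. Coordinates (GRCm38) are the table's; 28 of 31 members had the same place in GENCODE M21 (not Tm7sf2, Scd1 and Scd2). Reads that Scd1 and Scd2 or other close relatives share could be split by the counting. Figures were drawn with matplotlib 3.10.9, and tables handled with pandas 2.3.3 (Python 3.11.15).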

Additional observations from a re-analysis of the deposited data

How the results depend on the processing

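With 2 libraries a group, single libraries decided much. Leaving out 1 at a time, the number of genes called was 0 to 3359 for α-Syn against control, 0 to 3376 for AKG against control, 0 to 1369 for the interaction, 0 to 1304 for the AKG average, 0 to 692 for the vector average and 0 to 0 for both combined comparisons; each highest count came without control 2, with control 1 as the lone control, assumed to vary like the other groups. The sterol medians then ran from −0.16 to −0.023 (α-Syn against control), −0.15 to 0.035 (AKG against control), −0.16 to −0.082 (combined against α-Syn), −0.13 to −0.059 (combined against AKG), −0.12 to 0.059 (interaction), −0.14 to −0.063 (AKG average) and −0.13 to −0.063 (vector average). The fatty acid medians ran, in the same order, from −0.0087 to 0.57, 0.038 to 0.47, −0.12 to −0.020, −0.060 to 0.074, −0.50 to −0.088, −0.0060 to 0.23 and −0.0037 to 0.30. With no filter on low values 5 genes were called for α-Syn against control, 12 for AKG against control, 6 for combined against α-Syn, 14 for combined against AKG and 7 for the vector average. The 1 call for AKG against control became 2 with a pseudocount of 0.1 and 0 with eBayes without a trend, library weights or the length trend removed. Among genes of at least 5 FPKM the sterol median was −0.17 for AKG against control and 0.070 for the interaction. With the length trend removed the fatty acid median was −0.013 for AKG against control and −0.055 for the interaction, and Acaca reversed to −0.0057 for AKG against control. The cause of these moves was not tested.

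The replicate numbers were not taken to pair the samples, since same-numbered deviations correlated at −0.32 to 0.34. With the replicate number as a block, 0 genes were called for AKG against control instead of 1, and 0 of 30 members in any comparison.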
